A study of Mus musculus with 18 samples.

Results

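The mouse genes described here are Apobec1 and Apobec3, which encode cytidine deaminases, and Rbm47 and Syncrip, which encode RNA-binding proteins known to work with APOBEC1. They were picked by name as the host's own deaminases and deaminase cofactors, 4 of 56748 genes in the count table, and all 4 passed the filter on low counts. Their mRNA was measured in RN2 cells, an established mouse acute myeloid leukemia line that carries MLL-AF9 and NrasG12D and whose genotype field reads WT. The cells had been transduced with 1 of 4 constructs and sorted on day 5. The nCas9 group expressed the Cas9 nickase, and its column headers carry the words no evoA1. The catalytic mutant group expressed the base editor with an inactivated evoA1 deaminase, marked E63A in the headers. The intact BE group expressed the base editor with active evoA1, an evolved form of rat APOBEC1, and the seBE group expressed a base editor under small-molecule control. Intact BE and seBE cells each received either 1 nM rapamycin or vehicle for 24 h. The characteristics also record vehicle for nCas9 and the catalytic mutant, although the protocol names the treatment only for intact BE and seBE. Each of the 6 groups held 3 libraries, called biological replicates in the titles. No label states separate cultures or transductions for them, so a p-value here reflects only how much these libraries varied, which may be technical in part. The promoter that drives each construct is not given in the sources used here.

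APOBEC enzymes turn cytosine into uracil. APOBEC1 is the founding RNA editor of the family, known for changing a codon of the apolipoprotein B transcript into a stop codon in intestine, and it acts with an RNA-binding partner, A1CF or RBM47. SYNCRIP, also called hnRNP Q, binds both APOBEC1 and its cofactors. In the myeloid lineage, APOBEC1 is known to edit the ends of many transcripts in macrophages. APOBEC3 is a restriction factor that acts on retroviruses and retroelements. Base editors join a deaminase of this family to a Cas9 nickase, and the construct deaminase here is a relative of the product of host Apobec1. The transcript counts measured how much mRNA each gene gave, not how much editing took place.

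The 3 stretches below show what the deaminases share. Each runs from the codon of the motif's zinc-binding histidine to the codon of its last zinc-binding cysteine. The capitals mark the codons of the histidine, the motif's glutamate and both cysteines. They come from GENCODE M21 transcripts on build GRCm38, with the motif found by its spacing of residues.
Apobec1: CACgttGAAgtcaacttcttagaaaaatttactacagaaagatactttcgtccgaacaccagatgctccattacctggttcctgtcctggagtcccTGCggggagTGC
Apobec3 first domain: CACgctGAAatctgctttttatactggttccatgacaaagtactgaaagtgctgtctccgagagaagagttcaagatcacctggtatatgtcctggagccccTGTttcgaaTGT
Apobec3 second domain: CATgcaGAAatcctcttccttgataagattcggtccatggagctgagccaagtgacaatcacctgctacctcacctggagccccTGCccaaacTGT
The Apobec1 stretch lies in exon 6 of Apobec1-201, at chr6:122581507-122581614 on the minus strand, and spans 36 codons of a 229-codon reading frame. Its glutamate is codon 63, the residue number that the catalytic mutant's header names as E63A, counting from the start codon. Apobec3 holds the motif at 2 places of the 440 codons of Apobec3-204. The first lies in exon 3 at chr15:79897704-79897817 and the second in exon 7 at chr15:79906353-79906448, both on the plus strand. All 3 stretches use GAA for the glutamate.

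Library totals ran from 13835979 to 23284932 counts, and 14985 genes were tested. The cells expressed the myeloid leukemia markers chosen for this check, from Meis1 at 52.6 to Ptprc at 386 CPM (counts scaled to a common, TMM-adjusted library size), while every marker of B cells, T cells, erythroid cells, epithelium and liver or gut averaged under 1 CPM. Of these, Pax5, Cd3e, Cd3g and Krt8 had 0 counts. Of the 7 myeloid markers, 4 passed the test for any difference over the groups, as did 31.4% of all tested genes. These were Kit and Spi1, a receptor and a transcription factor of myeloid progenitors, the integrin Itgam (adjusted p = 8.06e-06) and the phosphatase Ptprc (adjusted p = 0.000817). Kit was higher in intact BE than in nCas9 by 0.51 ± 0.0787 (log2, SE, adjusted p = 1.67e-05), where 23% of genes passed. Spi1 was higher in the catalytic mutant than in nCas9 by 0.45 ± 0.0888 (adjusted p = 0.00346), where 4.3% passed. Ptprc was higher in intact BE than in the catalytic mutant by 0.35 ± 0.0850 (adjusted p = 0.00298), where 21% passed. Itgam was higher with rapamycin in intact BE by 0.58 ± 0.0795 (adjusted p = 1.05e-05), where 3.32% passed. Each of these markers also passed elsewhere, such as Spi1, higher in seBE under vehicle than in nCas9 by 0.34 log2 (adjusted p = 0.0218). Their part in the results below was not tested. In these bulk samples, fewer cells of a kind and less RNA per cell cannot be told apart. A pair of libraries stood apart from the rest, nCas9 replicate 2 with a score of 62.98 on the second principal component (−24.5 to 21.5 in the others) and catalytic mutant replicate 3 with a TMM factor of 1.03 (0.979 to 1.01 in the others). Some of the results below are also given without them, while the marker values above are given with all libraries only.

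The 4 genes covered a wide span of abundance. Averaged over the 18 libraries, the level was 342 CPM for Syncrip, 62.2 CPM for Apobec3, 28.1 CPM for Apobec1 and 3.20 CPM for Rbm47. Syncrip lay at percentile 97.0 of the tested genes by mean CPM and Rbm47 at percentile 31.1. Levels of different genes can be set side by side only per length. Per kilobase of merged exon, the level was 27.8 CPM for Syncrip, 10.4 CPM for Apobec1, 6.58 CPM for Apobec3 and 0.446 CPM for Rbm47. Per kilobase of the longest transcript, Apobec3 at 20.4 CPM stood above Apobec1 at 12.4 CPM, so the order of the deaminases depended on the length used, while Syncrip stayed highest at 36.2 CPM and Rbm47 lowest at 0.614 CPM. The counts behind a single library's value ran from 358 to 676 for Apobec1, 780 to 1458 for Apobec3, 26 to 93 for Rbm47 and 3988 to 9176 for Syncrip. The spread between libraries of a group, as a biological coefficient of variation, was 10.7% for Apobec1, 7.49% for Apobec3, 8.16% for Syncrip and 28.2% for Rbm47, against a median of 12.4% over all tested genes. Rbm47 was therefore the member measured least precisely.

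Host Apobec1 mRNA had its highest group mean in nCas9 cells and was lower in intact BE cells. The gene (ENSMUSG00000040613.15) lies at chr6:122577792-122602444 on the minus strand of GRCm38, and no annotated gene overlaps it. In nCas9 the 3 libraries had 36.5, 40.5 and 30.7 CPM of Apobec1. In intact BE under vehicle they had 21.3, 27.1 and 24.5 CPM. Every intact BE library was below every nCas9 library, which holds in one direction or the other for 38% of all tested genes in this comparison. The group means were 35.9 ± 4.91 CPM (SD, n = 3) and 24.3 ± 2.87 CPM (SD, n = 3). Apobec1 was lower in intact BE by −0.56 ± 0.132 on the log2 scale (SE), a fold of 0.677 with a 95% interval from 0.562 to 0.814, and passed edgeR's quasi-likelihood test with a Benjamini-Hochberg adjusted p = 0.00178. In this comparison 23% of tested genes passed, 9.83% as lower. Without nCas9 replicate 2 and catalytic mutant replicate 3, Apobec1 remained past the threshold at −0.47 log2 (adjusted p = 0.0162).

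The groups that carry a deaminase in another form lay between. The catalytic mutant libraries had 32.8, 29.0 and 25.2 CPM of Apobec1, a mean of 29.0 ± 3.83 CPM (SD, n = 3), and overlapped both nCas9 and intact BE. Against nCas9, the mutant differed in Apobec1 by −0.31 ± 0.131 (log2, SE) with a 95% interval from −0.57 to −0.04 and an adjusted p = 0.181 in edgeR, which did not pass. Intact BE differed from the mutant in Apobec1 by −0.26 ± 0.133 (adjusted p = 0.187), which did not pass either. The 95% interval of the second difference allows a fold from 0.694 to 1.01 between the active and the mutant deaminase.

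In seBE under vehicle the libraries had 24.5, 28.8 and 27.7 CPM of Apobec1, a mean of 27.0 ± 2.24 CPM (SD, n = 3). All were below the 3 nCas9 libraries, as 22.5% of genes were on one side or the other. The seBE difference from nCas9 was −0.41 ± 0.131 (log2, SE), with a fold from 0.627 to 0.906 within its 95% interval and an adjusted p = 0.0625 in edgeR, just outside the threshold, where 4.56% of genes passed. It passed without nCas9 replicate 3 (adjusted p = 0.0238) and with DESeq2 (adjusted p = 0.0472). Leaving out 1 of the other libraries compared gave adjusted p from 0.0660 to 0.312, the highest without seBE replicate 1. Set against intact BE under vehicle, seBE differed in Apobec1 by 0.15 log2 (adjusted p = 0.622), and the interval of that difference ran from 0.924-fold to 1.34-fold.

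With rapamycin, Apobec1 showed no called difference in either construct. Intact BE under rapamycin had 28.5, 23.8 and 23.2 CPM, a mean of 25.2 ± 2.89 CPM (SD, n = 3). Its difference from vehicle was 0.05 log2 (adjusted p = 0.920), with an interval from 0.862-fold to 1.25-fold. For seBE under rapamycin the values were 24.5, 27.9 and 29.8 CPM, a mean of 27.4 ± 2.69 CPM (SD, n = 3), and the difference from vehicle was 0.02 log2 (adjusted p = 0.999), from 0.844-fold to 1.22-fold. From the highest group mean to the lowest, Apobec1 ran nCas9, catalytic mutant, seBE with rapamycin, seBE with vehicle, intact BE with rapamycin and intact BE with vehicle. Libraries of neighbouring groups in this order overlapped at every step. Over all 6 groups at once Apobec1 passed the test for any difference (adjusted p = 0.00918), as did 31.4% of genes, but not without nCas9 replicate 1 (adjusted p = 0.0507) or nCas9 replicate 2 (adjusted p = 0.102). The host Apobec1 row had its highest group mean in nCas9, whose headers read no evoA1. Catalytic mutant replicate 1, at 32.8 CPM, lay above nCas9 replicate 3, at 30.7 CPM. Whether reads of the construct's evoA1 reached this row was not tested.

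**Figure D1:**
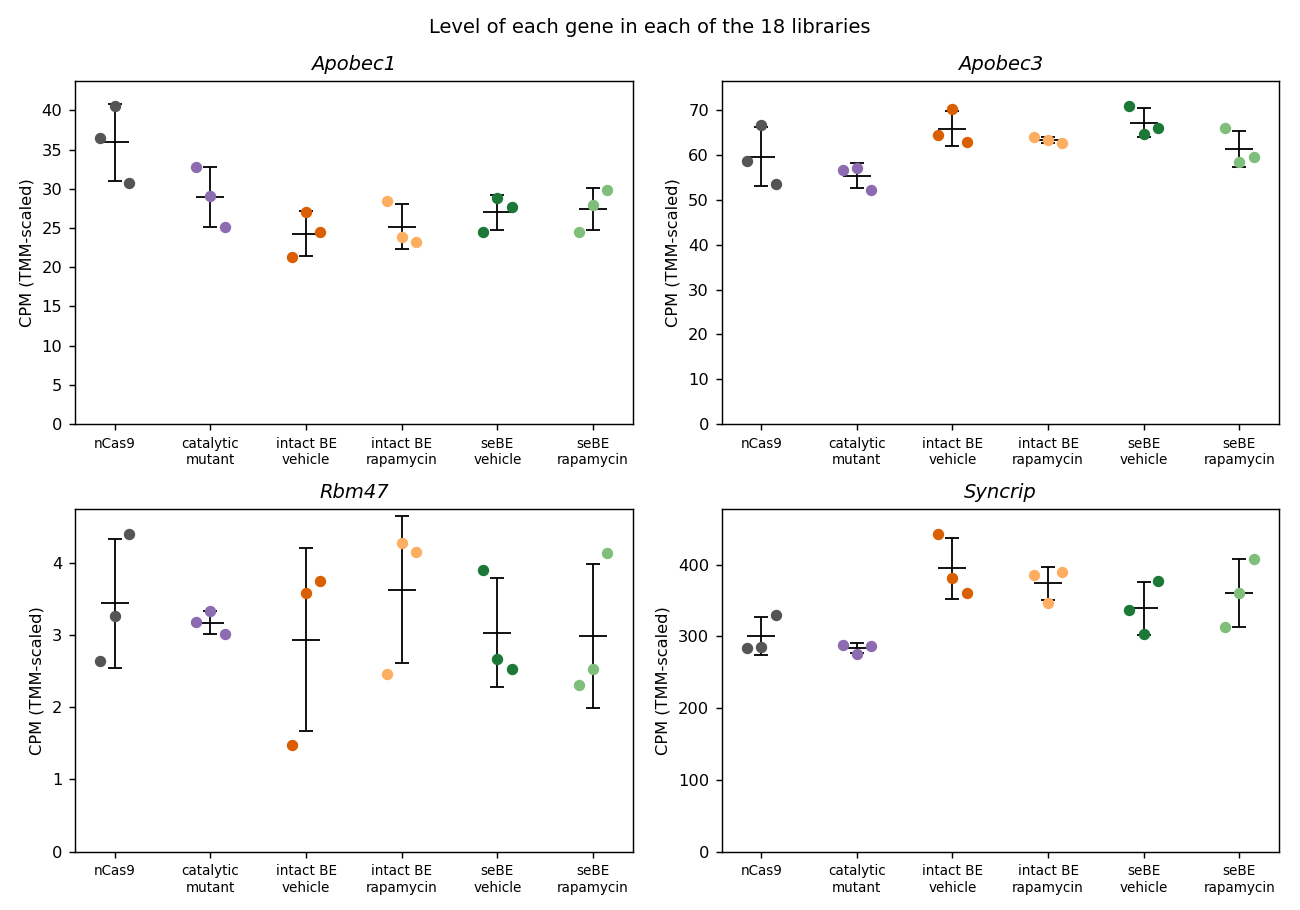
Level of Apobec1, Apobec3, Rbm47 and Syncrip in CPM (vertical axis, from 0, with a scale of its own for each gene) in the 3 libraries of each of the 6 groups; points are libraries, the wide tick is the group mean and the bars are the SD. By group mean, Apobec1 is highest in nCas9 and Syncrip is lowest in nCas9 and the catalytic mutant. The Rbm47 groups overlap throughout.

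Apobec3 moved little, and its one called difference was between the active and the inactive deaminase. The gene (ENSMUSG00000009585.19) spans chr15:79891659-79915906 on the plus strand of GRCm38. It overlaps Cbx7 on the opposite strand, which had 2205 counts over all libraries against 20707 for Apobec3. The strand setting of the count is not given in the sources used here, so reads from the shared part cannot be told apart. In intact BE under vehicle Apobec3 had 64.5, 70.4 and 63.01 CPM. In the catalytic mutant it had 56.8, 57.2 and 52.2 CPM, all below intact BE, in a comparison where 37.8% of genes did not overlap. The group means were 66.0 ± 3.93 and 55.4 ± 2.80 CPM (SD, n = 3 each). Apobec3 was higher in intact BE than in the mutant by 0.25 ± 0.0898 (log2, SE), a fold of 1.19 with a 95% interval from 1.05 to 1.35 and an adjusted p = 0.0426 in edgeR, where 21% of genes passed and 11.6% passed as higher. The call was lost on leaving out any 1 of the 6 libraries compared, with adjusted p from 0.0526 to 0.212, and without both libraries that stood apart (adjusted p = 0.133).

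Against nCas9, no construct gave a called difference in Apobec3. The nCas9 libraries spread widely, at 58.7, 66.8 and 53.6 CPM, with a mean of 59.7 ± 6.62 CPM (SD, n = 3). Intact BE differed from them by 0.15 ± 0.0892 (log2, SE, adjusted p = 0.263), the catalytic mutant by −0.11 log2 (adjusted p = 0.581) and seBE by 0.17 log2 (adjusted p = 0.298). The highest Apobec3 mean was in seBE under vehicle, at 70.9, 64.8 and 66.1 CPM, 67.3 ± 3.23 CPM (SD, n = 3). Under rapamycin the seBE libraries had 66.0, 58.6 and 59.7 CPM, 61.4 ± 4.02 CPM (SD, n = 3), and the difference from vehicle was −0.13 log2 (adjusted p = 0.999), from 0.807-fold to 1.04-fold. The intact BE libraries under rapamycin lay close together at 64.0, 63.4 and 62.8 CPM, 63.4 ± 0.585 CPM (SD, n = 3), and differed from vehicle by −0.06 log2 (adjusted p = 0.862), from 0.849-fold to 1.09-fold. In order of mean, Apobec3 ran seBE with vehicle, intact BE with vehicle, intact BE with rapamycin, seBE with rapamycin, nCas9 and the catalytic mutant, with overlap at every step. The test for any difference over the 6 groups gave Apobec3 an adjusted p = 0.112, and 0.0475 without nCas9 replicate 2.

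Of the cofactors, Rbm47 was scarce and showed no called difference. RBM47 can stand in for A1CF as the RNA-binding partner in the editing complex. The gene (ENSMUSG00000070780.12) lies at chr5:66016549-66173118 on the minus strand of GRCm38, and the annotated models that overlap it held at most 148 counts in all libraries, against 1066 for Rbm47. The highest group mean was 3.63 ± 1.02 CPM (SD, n = 3) in intact BE with rapamycin, from 2.46, 4.28 and 4.15 CPM. The lowest Rbm47 mean was 2.93 ± 1.27 CPM (SD, n = 3) in intact BE with vehicle, from 1.47, 3.58 and 3.75 CPM. Of all groups, this one also held the widest spread between libraries, and it overlapped every other group. Between these lay nCas9 with 2.64, 3.27 and 4.40 CPM, the catalytic mutant with 3.18, 3.33 and 3.01 CPM, seBE with 3.90, 2.67 and 2.52 CPM under vehicle, and seBE with 2.31, 2.53 and 4.14 CPM under rapamycin. For Rbm47 the differences ran from −0.32 to 0.31 log2 over the 9 comparisons, and the smallest adjusted p was 0.700. Precision was low. The interval for rapamycin in intact BE allowed a fold from 0.748 to 2.04. The interval for intact BE against nCas9 allowed a fold from 0.514 to 1.41, so in that comparison a fold of the size measured for Apobec1 was not detectable for Rbm47 at this depth and spread.

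Syncrip was higher in intact BE cells than in both controls. The gene (ENSMUSG00000032423.13) lies at chr9:88447009-88482574 on the minus strand of GRCm38 and shares its place only with Gm20537, which had 18 counts against 115107 for Syncrip. In nCas9 the libraries had 283.7, 285.6 and 330.5 CPM of Syncrip. In the catalytic mutant they had 288.2, 276.1 and 287.0 CPM. In intact BE under vehicle they had 442.5, 381.4 and 360.7 CPM, above every library of both controls. In one direction or the other, 38% of tested genes did not overlap between intact BE and nCas9, and 37.8% between intact BE and the mutant. The means were 299.9 ± 26.5, 283.8 ± 6.65 and 394.9 ± 42.5 CPM (SD, n = 3 each). Syncrip was higher in intact BE than in nCas9 by 0.40 ± 0.0893 (log2, SE), a fold of 1.32 with a 95% interval from 1.16 to 1.49 (edgeR, adjusted p = 0.00134), in a comparison where 13.1% of genes passed as higher. Against the catalytic mutant it was higher by 0.48 ± 0.0895 (log2, SE), a fold of 1.39 from 1.23 to 1.58 (adjusted p = 0.000331). The mutant itself differed from nCas9 in Syncrip by −0.08 log2 (adjusted p = 0.691), from 0.834-fold to 1.07-fold, and 4.3% of genes passed in that comparison.

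In seBE the Syncrip level lay between the controls and intact BE. Under vehicle the seBE libraries had 336.5, 303.9 and 377.6 CPM, a mean of 339.3 ± 36.9 CPM (SD, n = 3), and overlapped both nCas9 and intact BE. Syncrip in seBE differed from nCas9 by 0.18 log2 (adjusted p = 0.286) and from intact BE by −0.22 ± 0.0892 (log2, SE, adjusted p = 0.163), where 3.99% of genes passed. The interval of the second difference ran from 0.758-fold to 0.975-fold, so at an unadjusted level seBE was lower, and with adjustment over all genes it did not pass. With rapamycin, seBE had 312.7, 360.2 and 408.1 CPM of Syncrip, a mean of 360.4 ± 47.7 CPM (SD, n = 3), and intact BE had 385.5, 346.9 and 389.3 CPM, a mean of 373.9 ± 23.5 CPM (SD, n = 3). The change with rapamycin was 0.09 log2 in seBE (adjusted p = 0.999) and −0.08 log2 in intact BE (adjusted p = 0.784). From the highest mean to the lowest, Syncrip ran intact BE with vehicle, intact BE with rapamycin, seBE with rapamycin, seBE with vehicle, nCas9 and the catalytic mutant, again with overlap at every step. Any difference over the 6 groups passed with an adjusted p = 0.000351.

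**Figure D2:**
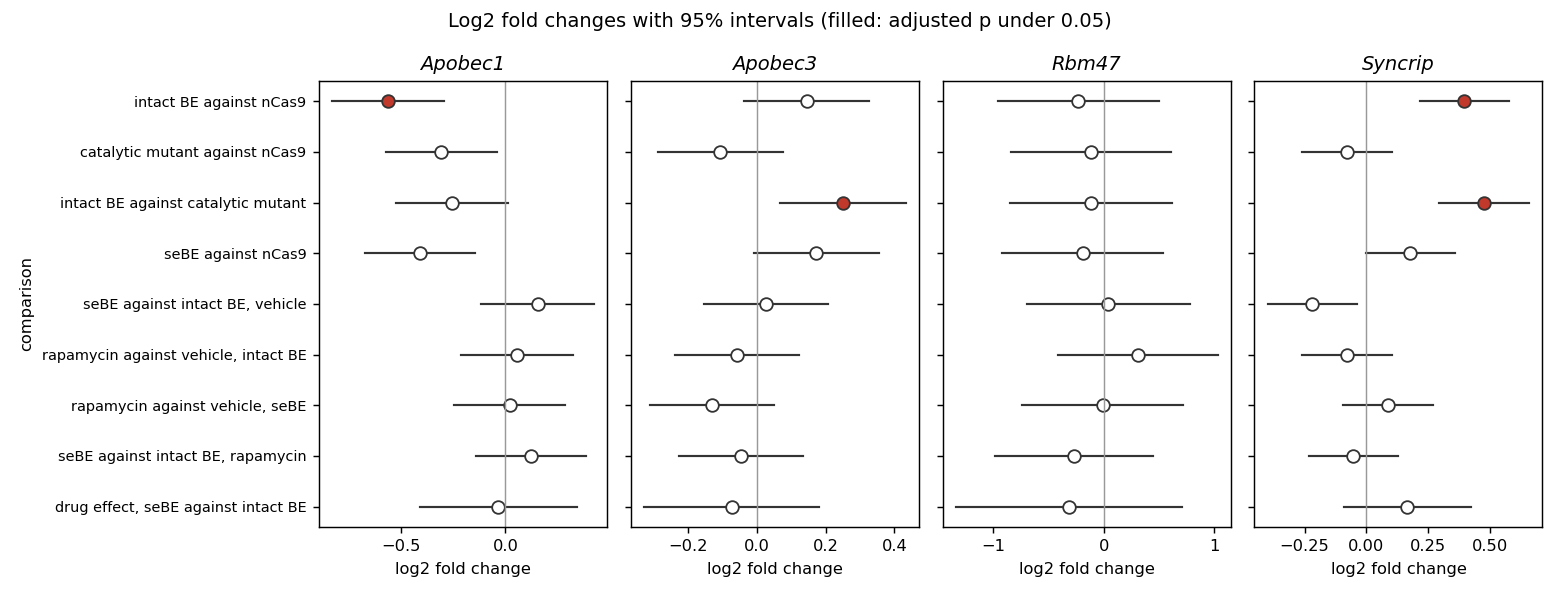
Log2 fold change (horizontal axis, scaled separately for each gene) of the 4 genes in the 9 comparisons (vertical axis); points are edgeR estimates, bars are 95% intervals, and filled points have an adjusted p under the threshold. Of the 36 points, 4 are filled, namely Apobec1 and Syncrip for intact BE against nCas9, and Apobec3 and Syncrip for intact BE against the catalytic mutant.

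By comparison, 2 of the 4 genes passed for intact BE against nCas9 and 2 of 4 for intact BE against the catalytic mutant, in each case beside the share of all genes given above. The comparisons share control samples, so these counts are not independent. None of the 4 passed in edgeR for the catalytic mutant against nCas9, for seBE against nCas9 or for seBE against intact BE under vehicle. Each of these had 1 member at an unadjusted p under 0.05 (Apobec1, Apobec1 and Syncrip), and DESeq2 called 0, 1 and 0 members. None passed for rapamycin against vehicle in intact BE, where 3.32% of genes passed. None passed in seBE, where 0% passed, with 493 genes at an unadjusted p under 0.05 and 1 called by DESeq2. None passed for seBE against intact BE under rapamycin, where 4.69% of genes passed, or for the difference between the drug effects, where 0.187% passed. In these 4 comparisons no member had an unadjusted p under 0.05 and DESeq2 called none. The drug effect in seBE minus that in intact BE was −0.03 log2 for Apobec1, −0.07 for Apobec3, −0.32 for Rbm47 and 0.17 for Syncrip, each with an adjusted p of 0.884 or more.

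Transcript length moved with the constructs across the whole table. Within each library, the deviation of genes from their mean over libraries was regressed on the log2 length of the longest transcript, giving a length slope that is positive where long transcripts stand high. The mean slope was −0.0732 log2 per doubling of length in nCas9 (−0.0950 to −0.0482), −0.0491 in the catalytic mutant and 0.0598 in intact BE under vehicle (0.0441 to 0.0908). With rapamycin the mean slope of intact BE was 0.0774, and seBE lay near 0, at −0.0222 under vehicle and 0.00738 with rapamycin. Syncrip has a long transcript of 9450 bases, while that of Apobec1 is 2265 bases, Apobec3 3053 bases and Rbm47 5211 bases. With a length trend taken out of every library, Syncrip in intact BE against nCas9 was at 0.19 log2 with an adjusted p = 0.0776, against 0.40 as fitted, and no longer past the threshold. With a replicate block fitted as well it was at 0.20 log2 and passed (adjusted p = 0.0298). Against the catalytic mutant it remained past the threshold at 0.28 log2 (adjusted p = 0.0105). Apobec1 in intact BE against nCas9 remained past the threshold at −0.51 log2 (adjusted p = 0.00535). Counts from mitochondrially encoded genes also moved with the groups, at a mean share of 5.10% in nCas9, 4.53% in the catalytic mutant, 1.88% in intact BE and 3.19% in seBE under vehicle. Its part in these results was not tested.

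**Figure D3:**
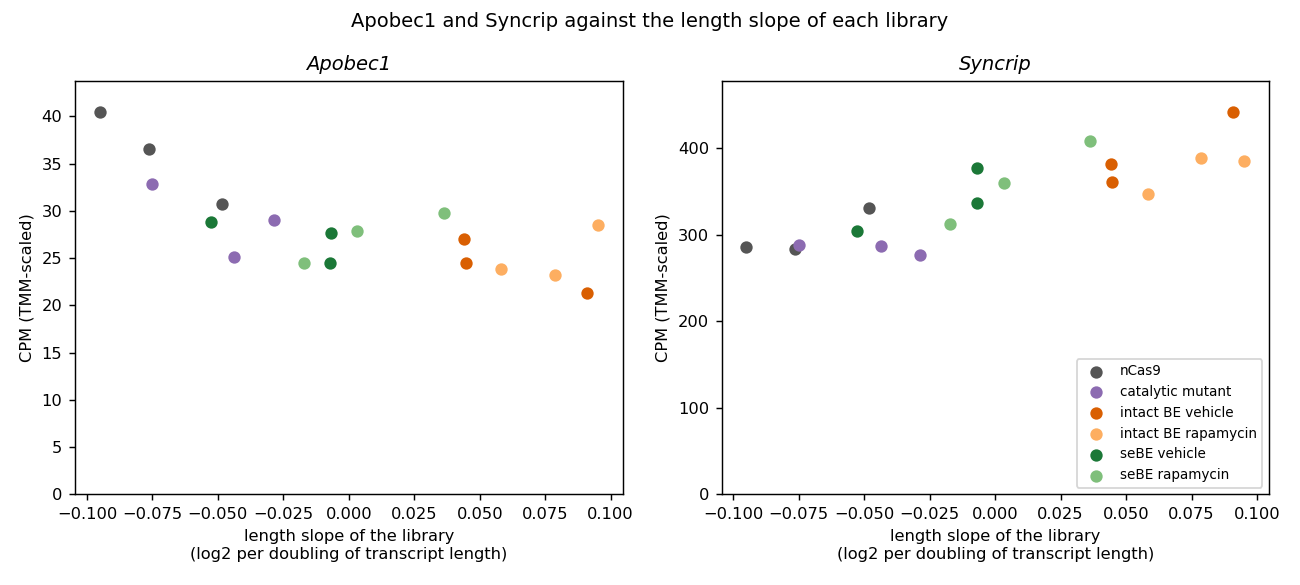
Level of Apobec1 (left) and Syncrip (right) in CPM (vertical axis, from 0) against the length slope of the library in log2 per doubling of transcript length (horizontal axis), 1 point for each of the 18 libraries, coloured by group. The library with the most Syncrip, 442.5 CPM, has a slope of 0.0908. The libraries of nCas9, the group with the highest Apobec1 mean, have slopes from −0.0950 to −0.0482.

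The other proteins known to partner with APOBEC1 gave context for Rbm47 and Syncrip. Of the 9 listed cofactors and partners, all tested, 7 passed the test as higher in intact BE against nCas9 and none passed as lower, where 13.1% of all genes passed as higher and 9.83% as lower, with a median of 0.28 log2 for the list and −0.04 log2 for all genes. Beside Syncrip these were Khsrp, a splicing and decay factor, at 0.48 ± 0.0783 (log2, SE, adjusted p = 3.16e-05), Celf2, a splicing regulator, at 0.45 ± 0.0801 (adjusted p = 8.61e-05), and Bag4, a chaperone regulator, at 0.46 ± 0.118 (adjusted p = 0.00412). Hnrnpr, the closest relative of Syncrip, was higher by 0.28 log2 (adjusted p = 0.00844), Hnrnpab by 0.22 log2 (adjusted p = 0.0166) and the co-chaperone Dnajb11 by 0.21 log2 (adjusted p = 0.0250). Without nCas9 replicate 2 the calls of Hnrnpab (adjusted p = 0.0694) and Dnajb11 (adjusted p = 0.148) were lost, as were those of Bag4 (adjusted p = 0.0517) and Dnajb11 (adjusted p = 0.0837) without intact BE replicate 1 and that of Dnajb11 (adjusted p = 0.0529) without intact BE replicate 3. With the length trend taken out 5 of the 9 were higher, Syncrip and Hnrnpr (0.12 log2, adjusted p = 0.359) no longer among them, and without both libraries that stood apart 5 were higher. Rbm47 and A1cf were lower in estimate without passing. Against the catalytic mutant 3 of 9 passed as higher in intact BE, beside 11.6% of all genes, namely Syncrip, Celf2 at 0.43 log2 (adjusted p = 0.000297) and Hnrnpr at 0.27 log2 (adjusted p = 0.0124), the last lost without catalytic mutant replicate 1 (adjusted p = 0.0730) or intact BE replicate 2 (adjusted p = 0.0627). With the length trend taken out, 2 of 9 passed as higher against the mutant, with a list median of 0.16 log2 against 0.27 as fitted. With a replicate block as well it was 3 of 9. Khsrp was the one partner called higher in the mutant than in nCas9 (0.38 log2, adjusted p = 0.00461) and in seBE than in nCas9 (0.38 log2, adjusted p = 0.00457). In the mutant that call was lost without nCas9 replicate 2 (adjusted p = 0.0533), and in seBE it was lost without it as well (adjusted p = 0.05003). Celf2 was lower in seBE than in intact BE under vehicle by −0.31 log2 (adjusted p = 0.0259), a call lost without intact BE replicate 1 (adjusted p = 0.239), seBE replicate 1 (adjusted p = 0.0593) or seBE replicate 2 (adjusted p = 0.255).

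A1cf, the classical cofactor of liver and intestine, was close to absent. It had 81 counts over all libraries against 1066 for Rbm47. The nCas9 libraries held 12, 17 and 11 of these A1cf counts, the catalytic mutant 0, 3 and 0, and intact BE under vehicle 0, 4 and 2. With rapamycin intact BE held 1, 3 and 7, while seBE held 0, 4 and 12 under vehicle and 4, 1 and 0 with rapamycin. A1cf passed the filter on low counts mainly through the nCas9 libraries, and it was not kept under the filter of 1 CPM in 3 libraries. Its higher counts in nCas9 therefore follow in part from the filter and are given as a description only. A1cf passed in none of the comparisons (adjusted p = 0.169 for intact BE against nCas9). Rbm47 was thus the more abundant of the RNA-binding cofactors that can complete the complex, and on the per-length scale it had 0.446 CPM per kilobase of merged exon against 0.0649 for A1cf. Vil1, a gut marker on the same check list as the tissues known for A1cf, had a mean of 0.635 CPM. Of the further relatives by RNA recognition motifs, Rbm46 had 1 count and Dnd1 1.85 CPM. Dnd1, a germ-cell factor that binds the ends of transcripts, was lower in intact BE than in nCas9 by −1.40 ± 0.479 (log2, SE, adjusted p = 0.0311), at 0.975 against 2.58 CPM. It lost that call without either of nCas9 replicates 1 and 2 and without either of intact BE replicates 1 and 2, with adjusted p up to 0.151.

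**Figure D4:**
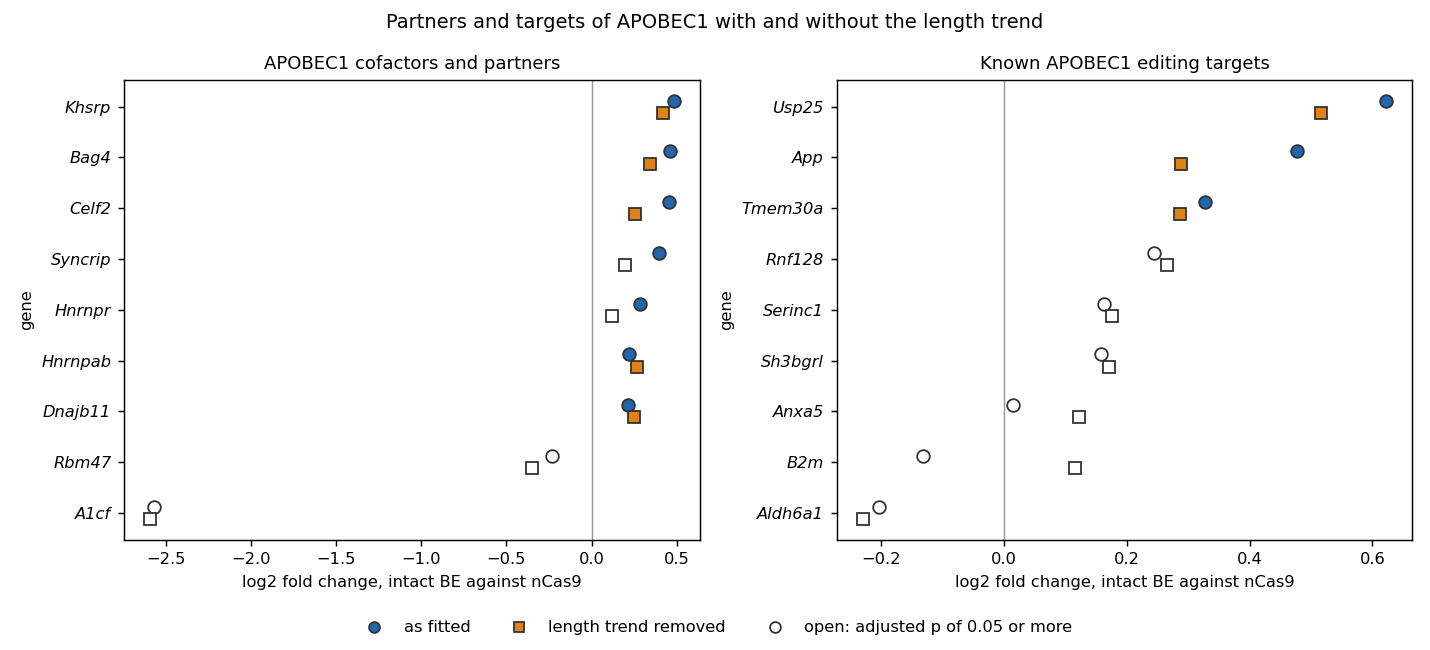
Log2 fold change in intact BE against nCas9 (horizontal axis) for 9 APOBEC1 cofactors and partners (left) and 9 of the 10 tested transcripts known as APOBEC1 editing targets (right); circles are as fitted, squares have the length trend taken out, and open symbols did not pass the test. On the left 7 circles are filled and 5 squares, with Syncrip and Hnrnpr losing their call.

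Among the genes named as APOBEC, Apobec1 and Apobec3 passed the filter on low counts. Apobec2, which encodes a muscle protein, had 15 counts over all 18 libraries. Apobec4 had 0 counts, which over the summed libraries allows a level of up to 0.00898 CPM (3 counts, counting error only). Among deaminases that act on adenosine in RNA, Adar had the highest level per kilobase of merged exon, at 9.54 CPM against 6.27 for Adat2 and 2.15 for Adat1. Adar was lower in intact BE than in the catalytic mutant by −0.22 ± 0.0768 (log2, SE, adjusted p = 0.0376), the opposite direction to Apobec3 in the same comparison, and lost the call on leaving out any 1 of 5 of the 6 libraries (adjusted p up to 0.153). Adarb1 had 31 counts, while Adat1 and Adat2, which act on transfer RNA, had 9.44 and 9.19 CPM and passed in no comparison. Of the deaminases of free nucleosides and nucleotides, Cda had 20 counts, Dctd had 27.4 CPM and Cdadc1 36.8 CPM. Cdadc1 was lower in the catalytic mutant than in nCas9 by −0.44 ± 0.111 (log2, SE, adjusted p = 0.0179), a call lost without nCas9 replicate 2 (adjusted p = 0.149), catalytic mutant replicate 1 (adjusted p = 0.0772) or catalytic mutant replicate 3 (adjusted p = 0.0610).

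Transcripts known as APOBEC1 editing targets were looked at for their level alone. Apob and Cyp4v3 had 0 counts, and 10 of 12 were tested. In intact BE against nCas9, 3 of 10 passed as higher, beside 13.1% of all genes, and none passed as lower, with a median of 0.20 log2. These were Usp25, a ubiquitin protease, at 0.62 log2 (adjusted p = 1.46e-05), App, the amyloid precursor, at 0.48 log2 (adjusted p = 2.01e-05) and Tmem30a, a flippase subunit, at 0.33 log2 (adjusted p = 0.0187). Tmem30a lost its call without nCas9 replicate 1 (adjusted p = 0.0784), nCas9 replicate 2 (adjusted p = 0.0865) or intact BE replicate 1 (adjusted p = 0.139). Against the catalytic mutant 5 of 10 passed as higher, beside 11.6% of all genes, with a median of 0.31 log2 for the list and −0.03 log2 for all genes, and the count was 2 without intact BE replicate 1 and 3 without catalytic mutant replicate 1 or 2. Among them were Tmem30a at 0.57 log2 (adjusted p = 0.000276), Usp25 at 0.49, Serinc1 at 0.39 and App at 0.23 log2, the last with an adjusted p = 0.0246. The App call was lost in 4 of 6 fits with 1 library left out (adjusted p up to 0.117). Host Apobec1 went the other way in intact BE against nCas9, as given above. App was also called higher than in nCas9 in the catalytic mutant (0.25 log2, adjusted p = 0.0479) and in seBE under vehicle (0.29 log2, adjusted p = 0.0182). Leaving out 1 library lost these calls in 5 and 4 of 6 fits. In seBE against nCas9, Aldh6a1 passed as lower (−0.78 log2, adjusted p = 0.0389), a call lost in 5 of 6 such fits.

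The pattern of each gene over the 18 libraries was compared with that of 9715 other genes of at least 5 CPM (9716 for Rbm47), by Pearson's r on log2 CPM. The nearest to Apobec1 were BC003965 (r = 0.87), Mnd1 (r = 0.86) and Cox4i1 (r = 0.86). For Syncrip they were Dhx15, Rab14 and Fam49b, each with r = 0.95. Nearest to Apobec3 were Larp1b (r = 0.85), Amotl1 (r = 0.82) and Gpatch1 (r = 0.80), and nearest to Rbm47 were Mob2 (r = 0.70), Pip4k2c (r = 0.68) and Gfod2 (r = 0.64). Among the 4 genes themselves r was −0.56 between Apobec1 and Syncrip and 0.37 between Apobec3 and Syncrip, and from −0.21 to 0.13 for the other pairs. The points of each pair share their library and its depth, and the 18 libraries fall into 6 groups, so these values describe the libraries and carry no test.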

How the data were processed

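Poly(A)-selected, directional mRNA libraries were sequenced from 18 samples of RN2 cells. Values are raw counts of reads for each gene, as deposited by the authors. Per the submitters' processing notes, the authors used fastp 1.0.1, STAR 2.7.1a, SAMtools 1.9, featureCounts from Subread 2.0.3 and DESeq2, with genome GRCm39. The annotation release, strand setting and treatment of multi-mapping reads are among the steps not given in the sources used here. Samples were grouped by their titles, with 3 libraries in each group.

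The counts were analysed in R 4.3.3 with edgeR 4.0.16. Genes were kept by filterByExpr on the 6 groups (14985 of 56748, with 99.93% of counts), scaled by TMM and fitted as 6 group means with robust quasi-likelihood F tests, adjusted after Benjamini and Hochberg over all tested genes, with a threshold of 0.05. The common biological coefficient of variation was 13.3%. SE is the size of the log2 fold change over the square root of F. The procedure was tested on simulated data. Symbols matched 52073 IDs.

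The 4 genes and all lists were chosen with earlier results of these data known. Some listed genes are not reported here. Named were the 4 genes in every comparison, listed genes past the threshold in a comparison described, each family and cofactor gene for its level, and for each of the 4 the 3 genes nearest in pattern. Coordinates, lengths (97.4% of tested genes) and coding stretches came from GENCODE M21 on GRCm38, an older build than that of the counts.

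Alternatives were DESeq2 1.42.0, RLE and upper-quartile scaling, no filter, 1 CPM in 3 libraries, the compared libraries alone, a replicate block, removal of a length trend (a spline with 4 degrees of freedom in each library, fitted on genes of log2 CPM 3 or more), both together, and leaving out each library. Leaving out both libraries that stood apart was chosen after seeing the data. Same-numbered libraries of seBE with rapamycin and with vehicle deviated together from their group means (r = 0.116, 0.292 and 0.408), so the numbers were taken to pair the samples in that comparison. In the other 7 comparisons of 2 groups at least 1 pair was under 0.1. The values printed above for rapamycin in seBE nevertheless come from the fit without a block. With the replicate block 0 genes passed there. Apobec1 was then at 0.02 log2, Apobec3 at −0.13, Rbm47 at −0.07 and Syncrip at 0.09.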

Additional observations from a re-analysis of the deposited data

Results flagged for a closer look

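Anxa5, one of the transcripts known as APOBEC1 editing targets, responded to rapamycin differently in the 2 editors. The test of the difference itself, the drug effect in seBE minus that in intact BE, gave −0.61 ± 0.110 (log2, SE), with an adjusted p = 0.00564 in edgeR, and 0.187% of genes passed. In intact BE the libraries had 157, 181 and 169 CPM under vehicle and 273, 283 and 235 CPM with rapamycin, a rise of 0.64 ± 0.0780 log2 (adjusted p = 1.99e-06). In seBE they had 154, 154 and 149 CPM under vehicle and 158, 149 and 160 CPM with rapamycin, a difference of 0.03 log2 (adjusted p = 0.999). The difference between the drug effects passed under every alternative run, with adjusted p from 0.000123 to 0.0364. The myeloid marker Itgam moved with it. Its difference between the drug effects was −0.58 ± 0.112 (log2, SE, adjusted p = 0.0127), from a rise of 0.58 ± 0.0795 in intact BE (adjusted p = 1.05e-05) and −0.00134 in seBE (adjusted p = 0.999). Its part in the Anxa5 result was not tested. None of Apobec1, Apobec3, Rbm47 and Syncrip met a criterion for this part.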

How the results depend on the processing

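For the 4 genes there were 40 results (10 comparisons each) and 700 values under another setting, of which 653 kept their direction and side of the threshold, 14 were no longer past it, 5 were newly past it and 28 turned direction, none of these past the threshold before or after. Of the 4 genes, the number past the threshold moved as follows. For intact BE against nCas9 it was 2, and 1 with the length trend removed, but 2 with the length trend removed and a replicate block. For intact BE against the catalytic mutant it was 2, and 1 with RLE scaling, upper-quartile scaling, no filter or without both libraries that stood apart, and 1 on leaving out each library in turn, Apobec3 being the one lost. For seBE against nCas9 it was 0, and 1 with DESeq2 or upper-quartile scaling (adjusted p = 0.0468), and 0 to 1 on leaving out 1 library. For any difference over the 6 groups it was 2, and 1 without both libraries, and 1 to 2 on leaving out 1. The fit with a replicate block called 1 gene for seBE against nCas9 (Apobec1, adjusted p = 0.0443) and changed no other call of the 4. Over all comparisons the same-numbered libraries had r from −0.422 to 0.408, over 0.1 in 25 of 45 pairs. Among pairs of different number, 13 of 90 were over 0.1. Of the libraries, 14 of 18 correlated best with their own number. The number of genes called with the block rose from 644 to 985 for the catalytic mutant against nCas9 and from 684 to 1089 for seBE against nCas9. Without nCas9 replicate 2 these 2 counts were 122 and 165, without seBE vehicle replicate 1 the second was 122, and without both libraries that stood apart they were 40 and 254. For seBE against intact BE under vehicle the count of 598 was 54 without intact BE vehicle replicate 1, 52 without seBE vehicle replicate 2 and 1837 with the compared libraries alone. Over all libraries left out in turn the counts ran from 1662 to 2989 for intact BE against the mutant (3141 with all), 214 to 398 for rapamycin in intact BE (497), 256 to 1114 for seBE against intact BE under rapamycin (703) and 11 to 56 for the difference of drug effects (28). Direction turned for Apobec3 in the catalytic mutant against nCas9 without both libraries (0.028) and for Syncrip in seBE against intact BE under rapamycin with the length trend removed (0.063) and with the replicate block as well (0.061). Leaving out 1 library gave these ranges of log2 change across 0. Rbm47 ran from −0.45 to 0.097 for intact BE against nCas9, −0.27 to 0.11 for the mutant against nCas9, −0.34 to 0.20 for intact BE against the mutant, −0.40 to 0.033 for seBE against nCas9, −0.28 to 0.27 for seBE against intact BE under vehicle, −0.020 to 0.53 and −0.32 to 0.21 for rapamycin in intact BE and in seBE, and −0.62 to 0.010 for the difference of drug effects. Syncrip ran from −0.11 to 0.00012 for the mutant against nCas9, −0.14 to 0.0087 and −0.012 to 0.18 for rapamycin in intact BE and in seBE, and −0.15 to 0.044 for seBE against intact BE under rapamycin. Apobec3 ran from −0.010 to 0.079 for seBE against intact BE under vehicle. Apobec1 ran from −0.048 to 0.13 and −0.044 to 0.096 for rapamycin in intact BE and in seBE, and −0.11 to 0.070 for the difference of drug effects. The number of editing targets called higher ran from 2 to 5 both for intact BE against nCas9 and for intact BE against the catalytic mutant. The cause was not tested for any of these. Counts limit Rbm47 most, with 26 to 93 in a library.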
